A study of Mus musculus with 23 samples.

Results

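Gene expression in the tibialis anterior of RE-RE mice was compared with that of wild-type (WT) mice after the muscle of both had been injected with 6-hydroxydopamine (6-OHDA). The comparison takes 12 of the 23 libraries of the series, 4 from RE-RE and 8 from WT muscle, chosen by genotype and treatment as labelled. Of 14500 genes in the deposited table, the 12279 with at least 1 FPKM (fragments counted per kilobase of exon, scaled to the size of the library) in at least 2 of these libraries were tested.

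All mice were female and of the C57BL/6 strain, fed ad libitum. RE-RE mice carry Bmal1 stopFL/stopFL, in which a stop cassette silences Bmal1 (Arntl), together with 1 copy each of the transgenes Syt10-Cre and Hsa-Cre, which remove the cassette. Syt10-Cre acts in neurons that include the suprachiasmatic nucleus, the central clock, and Hsa-Cre acts in skeletal muscle fibres, so other cells of the muscle are expected to stay without Bmal1. Both genotypes were given 50 mg/kg 6-OHDA into the muscle several times; the drug enters the endings of sympathetic nerves and destroys them. Muscle was taken at Zeitgeber time (ZT) 0, lights on, or ZT12, lights off. RE-RE muscle has 2 libraries per time (libraries 1 and 2 at ZT0, 3 and 4 at ZT12) from mice of 12 to 18 weeks of age. WT muscle has 4 libraries per time (1 to 4 at ZT0, 5 to 8 at ZT12) from mice of 12 to 16 weeks. Ages were not balanced within each time. At ZT0 the mouse of RE-RE library 2 was 12 weeks old, younger than every WT mouse of that time. At ZT12 the mouse of RE-RE library 4 was 18 weeks old, older than every WT mouse of that time. Age was tried as a covariate only across both times, so its part in the results by time was not tested. Sham muscle of both genotypes, 11 libraries, was not injected, so it controls for neither the needle nor the vehicle.

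The molecular clock is a loop in which ARNTL, paired with CLOCK or NPAS2, switches on genes with E-boxes. Among these are Per, Cry and Nr1d genes, whose proteins then repress the activators. In muscle the clock times fuel choice, with genes of fatty acid use and of glucose use peaking at different hours, and sympathetic nerves are one of the routes by which the central clock reaches muscle. The question of the comparison is how far muscle with Bmal1 restored in brain and muscle alone is like WT muscle when both have had the drug that destroys sympathetic endings.

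Recovered reads, rounded, came to 24000000 to 29400000 in RE-RE libraries and 26000000 to 36100000 in WT libraries, and transcripts of the mitochondrial genome took 9.26% to 19.2% of them in RE-RE and 7.31% to 15.3% in WT libraries. The libraries carried the mRNA of fast muscle, with Acta1 (skeletal actin) at 17576 to 20779 FPKM in RE-RE and 13400 to 19535 FPKM in WT libraries and Myh4 (fast myosin) at 2551 to 9460 FPKM in RE-RE and 1907 to 4489 FPKM in WT libraries. RE-RE library 2 stood apart. Its mean correlation with the WT libraries over genes was 0.875, against 0.920 to 0.943 for the other 11 libraries, and its summed macrophage markers came to 25.6 FPKM against 213 to 712 FPKM in WT libraries. The median residual SD of a gene was 0.319 log2 units within RE-RE groups and 0.204 within WT groups, and it was larger in RE-RE for 76.1% of genes. The spread was pooled in the tests, so p-values are likely too small for a genotype that varies more. Muscle is a mixture, so fewer cells of a type and less RNA per cell cannot be told apart in any result below.

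Across both times, 8 of 12279 genes (0.0652%) differed between RE-RE and WT muscle at a Benjamini-Hochberg adjusted p under 0.05 from limma, with time as a covariate. Angptl4 and Mir1968 were higher in RE-RE muscle (0.0163% of genes), and Ednrb, Mid1ip1, Sbk3, Arhgef3, Aspa and Dusp18 were lower (0.0489%). At an unadjusted p under 0.05 stood 1198 genes (9.76%), 483 higher and 715 lower, and the median log2 difference of all genes was -0.00. Ednrb, the receptor for endothelins, had the smallest p. It stood at 2.98 and 2.44 FPKM in the RE-RE ZT0 libraries and 2.24 and 2.33 FPKM in the RE-RE ZT12 libraries, against a lowest of 4.74, a median of 5.46 and a highest of 6.43 FPKM in WT libraries. Every RE-RE library was below every WT library. The log2 difference was -1.13 ± 0.11 (SE; adjusted p 0.00625), about 2.19-fold lower, and its adjusted p was 0.0523 without RE-RE library 4, the only library whose removal ended the call.

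Angptl4 showed the largest difference of the 8. It encodes a secreted inhibitor of lipoprotein lipase, the enzyme that frees fatty acids from circulating triglycerides, and is a known target of the PPAR fatty acid sensors. RE-RE libraries 1 and 2 (ZT0) had 16.4 and 6.82 FPKM and libraries 3 and 4 (ZT12) had 3.41 and 7.13 FPKM, against 0.190 to 1.65 FPKM with a median of 0.724 in WT libraries. The groups did not overlap, and the log2 difference was 3.43 ± 0.48 (SE; adjusted p 0.0302) on the log2(FPKM + 0.01) scale. Left-out libraries moved it between 3.13 and 3.70. The call stood without WT library 4, 5 or 6 and was lost without any of the other 9 libraries (adjusted p up to 0.101). Fat cells also make Angptl4. The adipocyte markers summed to 2036 to 3129 FPKM in RE-RE and 1157 to 2143 FPKM in WT libraries, most of it Car3, which fast fibres also express. Of defining markers, Adipoq had 16.3, 0.0671, 3.80 and 6.89 FPKM in RE-RE libraries 1 to 4, against 0.754 to 7.50 FPKM in WT libraries. The part of fat cells in the Angptl4 values was not tested.

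Mid1ip1, a regulator of acetyl-CoA carboxylase and so of fatty acid synthesis, fell in RE-RE muscle in the test across both times, and neither time passed alone (adjusted p 0.0849 at ZT0 and 0.0896 at ZT12). At ZT0 it stood at 5.67 and 5.38 FPKM in RE-RE libraries, against 13.2, 14.4, 11.4 and 11.5 FPKM in WT libraries. At ZT12 it stood at 15.2 and 13.8 FPKM in RE-RE libraries, against 40.2, 23.8, 29.4 and 40.7 FPKM in WT libraries. Within each time the groups did not overlap, and both were higher at ZT12. The log2 difference was -1.18 ± 0.14 (SE; adjusted p 0.0179), and leaving out RE-RE library 2, 3 or 4 ended the call (adjusted p up to 0.0846).

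The other 4 genes that fell are of mixed role. Sbk3, a kinase of the SH3-binding-domain family, had 0.305, 0.101, 0.422 and 0.257 FPKM in RE-RE libraries 1 to 4, against 0.594 to 2.23 FPKM with a median of 1.13 in WT libraries (log2 difference -2.24 ± 0.30 SE, adjusted p 0.0302). Dusp18, a dual-specificity phosphatase, had 2.01, 1.31, 1.35 and 2.03 FPKM in RE-RE libraries, against 3.13 to 10.8 FPKM with a median of 6.14 in WT libraries (-1.86 ± 0.28 SE, adjusted p 0.0485). Both genes were clear of overlap, and the WT values were widely spread. Arhgef3, an exchange factor for small GTPases, showed the smallest and tightest shift, with 5.17, 4.25, 4.22 and 4.18 FPKM in RE-RE libraries against 6.18 to 6.99 FPKM with a median of 6.44 in WT libraries (-0.55 ± 0.08 SE, adjusted p 0.0302). Aspa, which splits N-acetylaspartate into acetate and aspartate, had 0.976, 0.809, 1.26 and 0.783 FPKM in RE-RE libraries, against 1.62 to 2.19 FPKM with a median of 1.98 in WT libraries (-1.01 ± 0.15 SE, adjusted p 0.0381). These 4 calls sat near the threshold and were lost without most single libraries. Sbk3 was kept only without WT library 4 or RE-RE library 1, Arhgef3 without WT library 1 or 4 or RE-RE library 1, Dusp18 without WT library 2 or 4, and Aspa without RE-RE library 3. In the other cases adjusted p reached 0.0954 for Sbk3 and Arhgef3, 0.161 for Dusp18 and 0.106 for Aspa. With 1 variance per genotype none of the 8 genes was called, and Ednrb had an adjusted p of 0.0878.

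**Figure D1:**
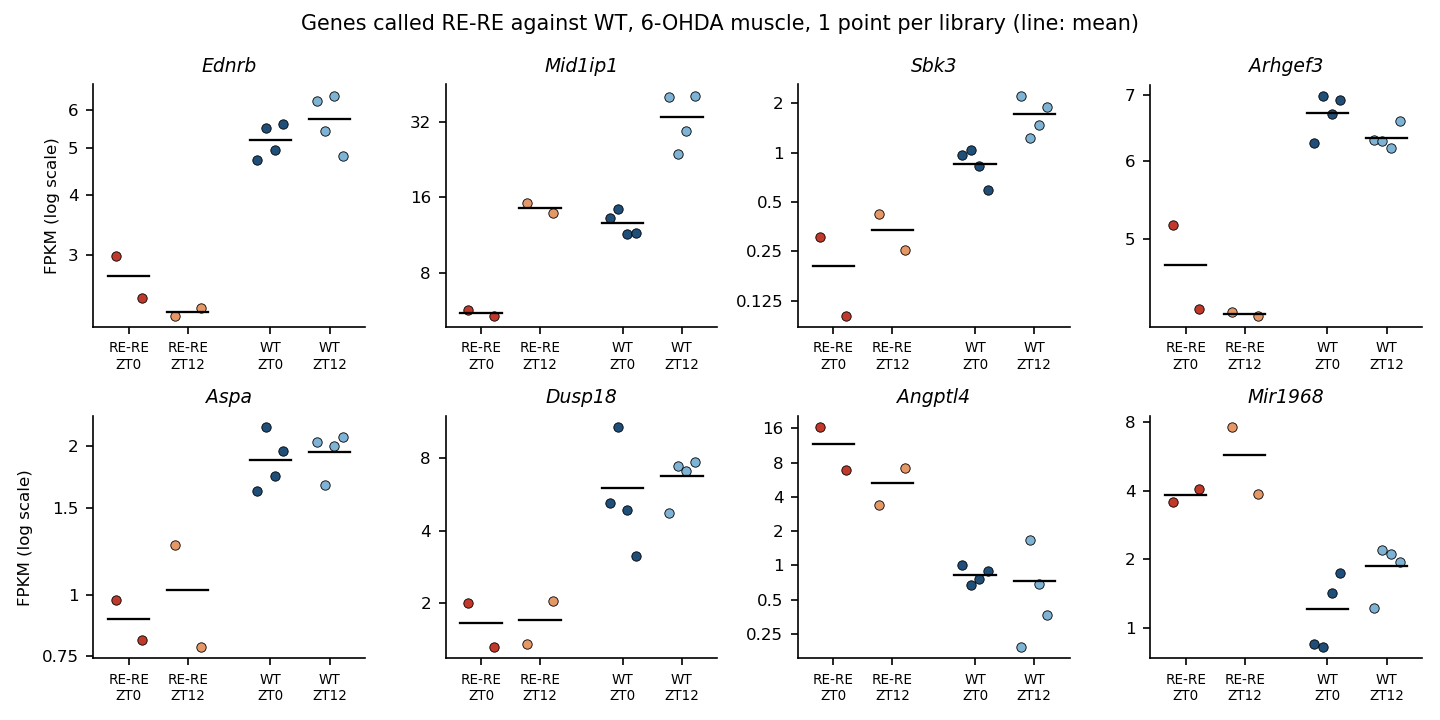
FPKM (log scale, 1 panel and range per gene) of the 8 genes that differed, 1 point per library with the group mean as a line, RE-RE ZT0 and ZT12 left and WT ZT0 and ZT12 right. RE-RE points lie below WT points at the same time in 6 genes and above them in Angptl4 and Mir1968; in Mid1ip1 both genotypes are higher at ZT12.

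The eighth gene, Mir1968, is a microRNA gene of 68 bases at chromosome 8, 13189031 to 13189098 (GRCm38, minus strand). It lies inside Grtp1 on the same strand and overlaps 0 of its exons, so it is intronic. The mature arms are printed from RefSeq (GRCm38.p6), with the seed, bases 2 to 8, in capitals. The libraries, of total RNA, counted the gene as a whole and cannot tell one arm from the other. Nor can they tell mature microRNA from its precursor or from unspliced Grtp1, so no value here measures a mature arm.
mmu-miR-1968-5p, chr8:13189068-13189091, minus strand: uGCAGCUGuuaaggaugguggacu
mmu-miR-1968-3p, chr8:13189035-13189055, minus strand: aCCACCUCugcagcuguuaag
Mir1968 had 3.59, 4.09, 7.59 and 3.86 FPKM in RE-RE libraries 1 to 4, against 0.826 to 2.20 FPKM with a median of 1.59 in WT libraries. These values rest on 6, 6, 13 and 8 recovered reads in RE-RE and 2 to 5 in each WT library. The log2 difference was 1.64 ± 0.25 (SE; adjusted p 0.0485), kept only without WT library 4 and with an adjusted p up to 0.161 without another. The host gene Grtp1 overlapped between the genotypes, at 2.43 to 5.20 FPKM in RE-RE and 2.05 to 3.97 FPKM in WT libraries.

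Just past the threshold, Mgmt, which repairs alkylated DNA, had 4.52, 6.57, 6.07 and 5.86 FPKM in RE-RE libraries against 2.45 to 3.77 FPKM in WT libraries (log2 difference 0.87 ± 0.14 SE, adjusted p 0.0537). Gm17251, an unnamed gene, had the same adjusted p with a log2 difference of 1.02 ± 0.16 (SE). It lies at chromosome 17, 33759992 to 33761870 (GRCm38), and Angptl4 lies at 33773750 to 33781830 on that chromosome.

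No gene of the core clock passed the limma test across both times; at an unadjusted p under 0.05 stood 2 of the 3 activators, 0 of the 10 repressors and 0 of the 5 D-box and ROR factors, where 9.76% of all genes did. Npas2, with a log2 difference of 2.32 (adjusted p 0.200), was called in the fit of all 23 libraries (adjusted p 0.00177). Arntl, the gene restored in RE-RE mice, was present in all 4 of their libraries, at 9.61 and 8.87 FPKM at ZT0 and 2.37 and 3.97 FPKM at ZT12, against 9.31, 9.12, 10.6 and 10.3 FPKM at ZT0 and 1.73, 1.23, 1.67 and 1.27 FPKM at ZT12 in WT libraries. At ZT0 the genotypes were close, and at ZT12 both RE-RE libraries were above every WT library. The log2 difference over both times was 0.49 ± 0.22 (SE; adjusted p 0.505), and an exact two-sided permutation of genotype within each time gave p = 0.0622 (the smallest possible is 0.00444). At ZT12 alone the log2 difference was 1.07 ± 0.21 (SE; adjusted p 0.118), and it ranged from 0.69 to 1.44 with 1 library left out. Counts do not show whether the transcript came from fibres or other cells. Of 48 tested genes within 5 Mb of Arntl, 0 were called (limma), and 9 stood at an unadjusted p under 0.05, where 9.76% of all genes did.

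Npas2, which can stand in for CLOCK beside ARNTL, differed at ZT12. There it had 1.61 and 2.49 FPKM in RE-RE libraries, against 0.139, 0.125, 0.0659 and 0.104 FPKM in WT libraries. At ZT0 it had 2.43 and 1.19 FPKM in RE-RE libraries, against 1.68, 1.15, 1.26 and 0.817 FPKM in WT libraries. WT libraries were all lower at ZT12 than at ZT0, while the RE-RE libraries of the 2 times overlapped. The ZT12 log2 difference was 4.13 ± 0.42 (SE; adjusted p 0.00601), between 3.82 and 4.45 with any 1 library left out, and the call was lost only without RE-RE library 4 (adjusted p 0.10). The change of this difference between the times did not pass (log2 3.62, adjusted p 0.109). Clock, the third activator, was close in both genotypes, with a log2 difference of 0.07 (adjusted p 0.828).

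The repressors and output factors, none of them called, had mostly lower values in RE-RE than in WT libraries at ZT12. Per1 had 1.69 and 3.86 FPKM at ZT0 and 11.0 and 9.69 FPKM at ZT12 in RE-RE libraries, against 1.54 to 2.64 FPKM at ZT0 and 15.9 to 20.8 FPKM at ZT12 in WT libraries. Per2 had 0.736 and 1.23 FPKM at ZT0 and 3.66 and 2.91 FPKM at ZT12 in RE-RE libraries, against 0.700 to 1.38 FPKM at ZT0 and 5.02 to 7.07 FPKM at ZT12 in WT libraries. For both genes the genotypes overlapped at ZT0 and were apart at ZT12, with RE-RE lower. Nr1d1, the REV-ERB alpha repressor of Arntl, had 9.94 and 13.0 FPKM in RE-RE and 18.6 to 25.6 FPKM in WT libraries at ZT12. Dbp, the output factor that binds D-boxes, had 3.79, 13.1, 28.0 and 19 FPKM in RE-RE libraries 1 to 4, against 3.23 to 4.07 FPKM at ZT0 and 27.2 to 48.9 FPKM at ZT12 in WT libraries. Of the 10 repressors, 6 were lower at ZT12 at an unadjusted p under 0.05, where 6.68% of all genes were, with a median log2 difference of -0.78; over both times 8 of 10 were negative, with a median of -0.22 and 0 lower at that level. Without RE-RE library 2 the median over both times was -0.56, and 6 of 10 were lower at that level, where 799 of 12279 genes were. At ZT0 the median was 0.27, and it was -0.03 with own totals of recovered reads and -0.15 without library 2, in which Per1, Per3, Nr1d1, Nr1d2 and Dbp were all the highest of the 6 ZT0 libraries. The 5 D-box and ROR factors had a median of -0.06 (-0.36 without library 2), with 0.60 at ZT0 (0.0069 without library 2) and -0.59 at ZT12. For 18 muscle genes known to cycle the median was -0.02 (-0.25 without library 2), with 0.33 at ZT0 (-0.04 without library 2) and -0.39 at ZT12.

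**Figure D2:**
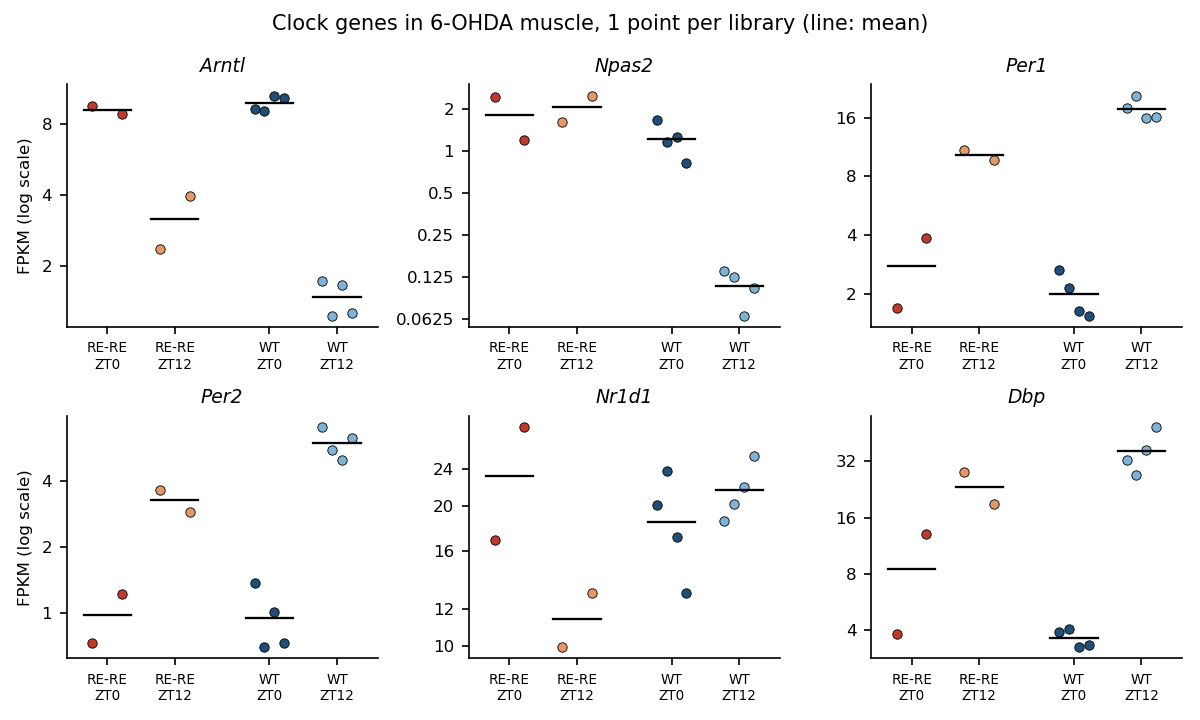
FPKM (log scale, 1 range per gene) of 6 clock genes, 1 point per library with the group mean as a line, RE-RE left and WT right. WT libraries are tight and far apart between the times for Arntl, Npas2, Per1, Per2 and Dbp; RE-RE Npas2 does not drop at ZT12, where WT libraries are at 0.0659 to 0.139 FPKM.

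At ZT0, 7 of 12279 genes (0.057%) were called, 4 higher (0.0326%) and 3 lower (0.0244%), and 2021 (16.5%) stood at an unadjusted p under 0.05. The 4 higher genes were Pdk4, Ucp3, Lipe and Slc25a34. Pdk4, the kinase that shuts pyruvate dehydrogenase and spares glucose, had 413 and 676 FPKM in RE-RE libraries, against 40.2, 36.5, 46.6 and 49.7 FPKM in WT libraries (log2 difference 3.62 ± 0.51 SE, adjusted p 0.0472). Ucp3, an uncoupling protein of muscle mitochondria induced by fatty acids, had 53.9 and 83.8 FPKM in RE-RE libraries, against 8.93, 9.42, 9.75 and 13.3 FPKM in WT libraries (2.72 ± 0.32 SE, adjusted p 0.0133). Both genes were clear of the WT range by several-fold. Lipe, the hormone-sensitive lipase, had 6.49 and 6.97 FPKM in RE-RE libraries, against 2.90, 3.62, 2.84 and 3.04 FPKM in WT libraries (1.12 ± 0.15 SE, adjusted p 0.0299). Slc25a34, a mitochondrial carrier, had 8.46 and 16.2 FPKM in RE-RE libraries, against 2.16, 2.81, 2.02 and 2.19 FPKM in WT libraries (2.36 ± 0.34 SE, adjusted p 0.0473). The 3 lower genes are small RNA genes, Mir697, Gm25894 and Gm24091, near 0 in some libraries. Fsd1l (-1.41, adjusted p 0.0573) and Col22a1 (1.25, adjusted p 0.0579), a collagen of the myotendinous junction, did not pass. Leaving out WT library 1, 2 or 3 or RE-RE library 2 ended the call of Ucp3 (adjusted p up to 0.0914). Calls stood only without WT library 2, 6 or 8 or RE-RE library 1 for Lipe (otherwise up to 0.160), without WT library 5 or 6 or RE-RE library 1 for Pdk4 (up to 0.290), and without WT library 5 or 7 or RE-RE library 1 for Slc25a34 (up to 0.313).

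Of Pdk4, Ucp3 and Slc25a34, promoters are shown for the 2 whose 250 bases before the start (RefSeq, GRCm38.p6) hold AGGTCA, the half-site bound by PPAR, REV-ERB and ROR receptors, on either strand. Matches are in capitals, and TGACCT is the same motif on the other strand. The motif occurs in 14.0% of 32851 promoters of this length; the Pdk4 window holds 0 matches, which says only that these letters are not in it, and the Lipe window was not searched.
Ucp3, chr7:100472741-100472990, plus strand: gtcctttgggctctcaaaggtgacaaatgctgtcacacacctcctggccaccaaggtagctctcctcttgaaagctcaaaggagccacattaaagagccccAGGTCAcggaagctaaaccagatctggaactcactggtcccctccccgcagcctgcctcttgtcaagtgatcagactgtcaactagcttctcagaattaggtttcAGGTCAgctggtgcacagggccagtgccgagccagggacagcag
Slc25a34, chr4:141623835-141624084, minus strand: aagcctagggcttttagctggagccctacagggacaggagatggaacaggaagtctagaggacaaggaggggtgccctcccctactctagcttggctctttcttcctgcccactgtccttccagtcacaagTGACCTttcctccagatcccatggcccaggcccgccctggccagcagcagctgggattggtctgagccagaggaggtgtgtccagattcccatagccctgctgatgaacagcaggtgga
Ucp3 thus has 2 matches and Slc25a34 has 1.

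At ZT12 the same 4 genes were not called. Pdk4 had 68.2 and 128 FPKM in RE-RE and 23.6 to 115 FPKM in WT libraries, and Ucp3 had 26.5 and 39.7 FPKM in RE-RE and 12.0 to 28.6 FPKM in WT libraries, so the groups overlapped. Slc25a34 was on the other side, at 2.17 and 2.35 FPKM in RE-RE against 3.79 to 9.38 FPKM in WT libraries. The change of its genotype difference between the times, ZT12 minus ZT0, was -3.70 ± 0.48 (SE; adjusted p 0.0441), one of 3 genes (0.0244%) called for such a change, with Tpm3 (below) and Mir697. This call stood only without RE-RE library 1 and reached an adjusted p of 0.128 otherwise. Plin5, a coat protein of lipid droplets in oxidative muscle, followed the same course without passing: 11.9 and 18.2 FPKM at ZT0 and 5.90 and 3.41 FPKM at ZT12 in RE-RE libraries, against 2.07 to 4.35 FPKM at ZT0 and 7.92 to 17.9 FPKM at ZT12 in WT libraries (change -3.50, adjusted p 0.109). Plin5 was chosen after its values were seen.

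Genes of fatty acid use described as a list went the same way. Of 28 listed, 27 were tested. At ZT0, 2 were called higher (Pdk4 and Ucp3), and 13 were higher and 0 lower at an unadjusted p under 0.05, where 7.62% of all genes were higher and 8.84% lower; the median log2 difference was 0.57. At ZT12, 0 were called (limma), 15 were lower and 2 higher at that level, where 6.68% of all genes were lower, and the median was -0.58. For the change between the times, 24 of 27 were negative at an unadjusted p under 0.05, where 8.7% of all genes were, and 0 were called. Without RE-RE library 2, which leaves 1 RE-RE library at ZT0, the median change was -0.89, against -1.17 with it, and the ZT0 median was 0.22. Scaling by own totals of recovered reads moved the median of all genes to -0.25 at ZT0 and 0.03 at ZT12, and the list's medians were then 0.27 and -0.52. Acadvl, the first enzyme of long-chain oxidation in mitochondria, had 70.5 and 94.5 FPKM at ZT0 and 45.1 and 40.9 FPKM at ZT12 in RE-RE libraries against 50.0 to 82.1 FPKM at ZT0 and 72.0 to 95.8 FPKM at ZT12 in WT libraries. Ppara, the receptor that drives this programme in fasting, had 0.807 and 0.496 FPKM in RE-RE and 1.63 to 1.68 FPKM in WT libraries at ZT12 (log2 difference -1.38, adjusted p 0.0998). Both genes were chosen after their values were seen. Nuclear genes of oxidative phosphorylation had medians of 0.26 at ZT0 (-0.04 with own totals and -0.01 with quantile normalization) and -0.27 at ZT12 over 47 genes. By limma 0 were called at either time. At an unadjusted p under 0.05 stood 0 at ZT0, where 16.5% of all genes did. At ZT12, 2 were lower at that level, where 6.68% of all genes were, and 0 were higher. The ZT12 count depended on the scaling. With own totals 10 were lower, where 641 of 12279 genes were, and with quantile normalization 10, where 841 were. With median centring 0 were lower, where 676 were.

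**Figure D3:**
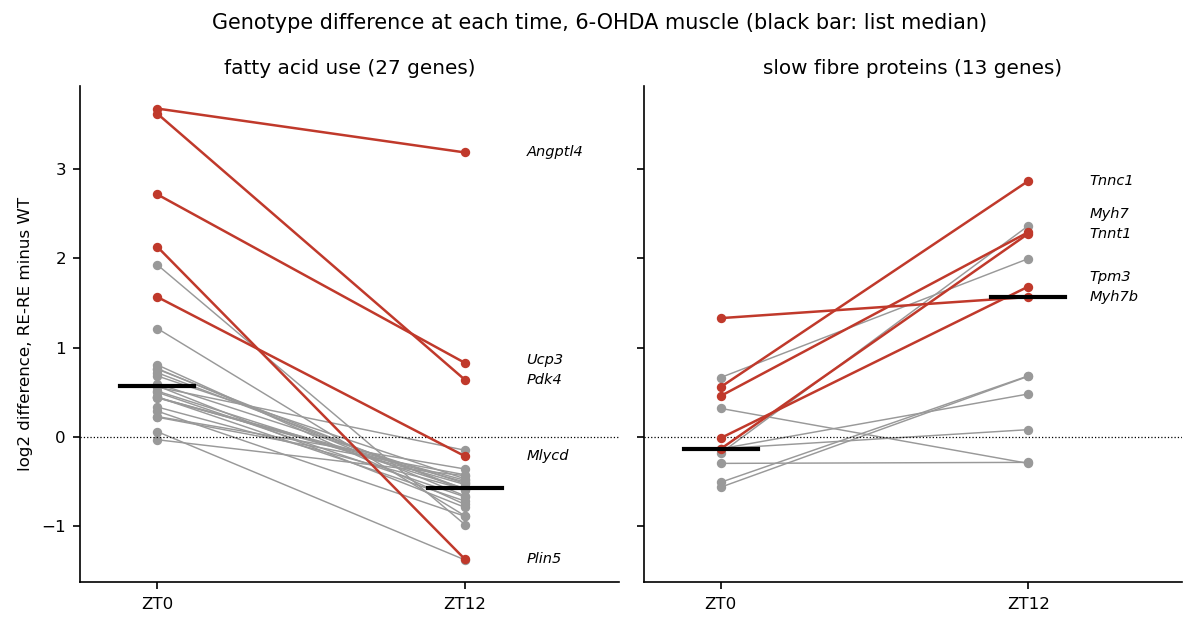
log2 difference, RE-RE minus WT, at ZT0 and at ZT12 for each tested gene of fatty acid use and of slow fibre proteins, with a line per gene, the genes named at the right in red, and the list's median as a bar. Most fatty acid genes lie above 0 at ZT0 and below it at ZT12 (medians 0.57 and -0.58); slow fibre genes lie around 0 at ZT0 and mostly above it at ZT12 (medians -0.13 and 1.57).

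At ZT12, 15 genes (0.122%) were called, 5 higher (0.0407%) and 10 lower (0.0814%), and 1186 (9.66%) stood at an unadjusted p under 0.05. Among the higher were Tpm3 and Tnnc1, thin-filament proteins of slow fibres. Tpm3, slow tropomyosin, had 41.8 and 43.1 FPKM in RE-RE libraries, against 14.1, 13.4, 11.0 and 14.7 FPKM in WT libraries (log2 difference 1.68 ± 0.16 SE, adjusted p 0.00508). Tnnc1, slow troponin C, had 157 and 149 FPKM in RE-RE libraries, against 22.2, 15.1, 20.7 and 28.1 FPKM in WT libraries (2.87 ± 0.36 SE, adjusted p 0.0199). At ZT0 the genotypes overlapped for Tpm3, at 16.6 and 13.6 FPKM in RE-RE and 13.1 to 18.0 FPKM in WT libraries, and its change between the times was called (1.70 ± 0.22 SE, adjusted p 0.0441; kept only without RE-RE library 1, otherwise up to 0.128). Without RE-RE library 4 the ZT12 call of Tpm3 was lost (adjusted p 0.0574), and that of Tnnc1 was lost without WT library 5 or 7 or RE-RE library 3 or 4 (up to 0.163). Tpm3-rs7 was also called (1.28, adjusted p 0.0336; lost without any of 9 libraries, up to 0.233, and kept without WT library 1 or RE-RE library 1 or 2); by its name it is a sequence related to Tpm3, and reads may be shared between them.

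Of 13 slow fibre proteins, 7 were higher at ZT12 at an unadjusted p under 0.05, where 2.98% of all genes were, and 2 of them were called. The list's median was 1.57 at ZT12 and -0.13 at ZT0. Without RE-RE library 2 the ZT0 median was 0.41. Myh7, slow myosin, had 34.9 and 69.4 FPKM in RE-RE libraries and 11.0, 8.79, 6.68 and 15.6 FPKM in WT libraries at ZT12 (2.29, adjusted p 0.116). Tnnt1, slow troponin T, had 93.3 and 124 FPKM in RE-RE libraries and 15.9 to 29.0 FPKM in WT libraries (2.28, adjusted p 0.0721). Both RE-RE libraries were above every WT library for each, and both genes were chosen after their values were seen. Not all members took part: Mybpc1 and Actn2, which fast fibres also express, had log2 differences of -0.30 and -0.29 at ZT12. The summed FPKM of slow fibre proteins was 1370 to 1779 in RE-RE and 1282 to 1677 in WT libraries over both times, since these abundant members dominate it. Fast fibre proteins had a median of 0.03 at ZT12. RE-RE libraries at ZT12 are 2 muscles, and how much of a slow region each sample held was not measured.

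Lower at ZT12 was Bdh1, which oxidises the ketone body 3-hydroxybutyrate, with 0.606 and 0.458 FPKM in RE-RE libraries against 4.51, 2.20, 4.16 and 4.58 FPKM in WT libraries (-2.79 ± 0.35 SE, adjusted p 0.0199; lost without any of 6 libraries, RE-RE 3 or 4 and WT 2, 5, 7 or 8, with adjusted p up to 0.172). Ednrb was also called at ZT12 (-1.32, adjusted p 0.00998; lost without RE-RE library 3 or 4 or WT library 5, up to 0.10), as was Timp3, an inhibitor of matrix metalloproteinases (-1.43, adjusted p 0.0336; kept only without WT library 1 or RE-RE library 1, 2 or 4, otherwise up to 0.138). Timp3 had 3.05 and 5.09 FPKM in RE-RE libraries and 12.0, 11.3, 9.64 and 9.76 FPKM in WT libraries. Others, named after their values were seen, were Smtnl1, a smoothelin-like protein of muscle (-1.69), Fzd4, a Wnt receptor (-1.04), and Fmo2, a flavin monooxygenase (-2.70), each with an adjusted p of 0.0336. Fzd4 was on the other side at ZT0, with 12.9 and 13.7 FPKM in RE-RE and 7.36 to 10.5 FPKM in WT libraries, and its change between the times had an adjusted p of 0.0508, as had that of Tacc2, a coiled-coil protein of centrosomes (-1.99).

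Macrophage, collagen, matrix and fibroblast markers had medians that lay far closer to 0, or above it, without RE-RE library 2. The 21 tested macrophage markers had a median log2 difference of -1.14, with 20 of 21 negative and 0 called (limma; 2 lower at an unadjusted p under 0.05, where 5.82% of all genes were), and a median of -0.18 without library 2. Lyz2, lysozyme of macrophages, had 177, 9.22, 40.8 and 189 FPKM in RE-RE libraries 1 to 4, against 83.3 to 347 FPKM in WT libraries. Ptprc stood under 1 FPKM in all 12 libraries. Without library 2, the medians went to 0.11 for collagens, against -0.59 with it, to 0.26 against -0.49 for matrix proteins and proteases, and to -0.08 against -0.65 for fibroblast markers. Summed collagens were 164 to 1506 FPKM in RE-RE and 486 to 1815 FPKM in WT libraries. Adipocyte markers had a median of 0.52, with 0 of 10 called by limma and 2 higher at an unadjusted p under 0.05, where 3.93% of all genes were. Without library 2 the median was 1.12 and 7 were higher at that level, where 504 of 12279 genes were. Markers of Schwann cells, which wrap motor and sensory axons, had a median of 0.81 at ZT12, where 6 of 11 were higher at an unadjusted p under 0.05, a level at which 2.98% of all genes were higher, and 0 were called (limma). Their median was -0.35 at ZT0 (-0.0054 without library 2) and 0.21 over both times. In sham muscle it was 0.44, and 4 were called higher by limma, where 9.91% of all genes were called in either direction. The part of these cells in the genes above was not tested.

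**Figure D4:**
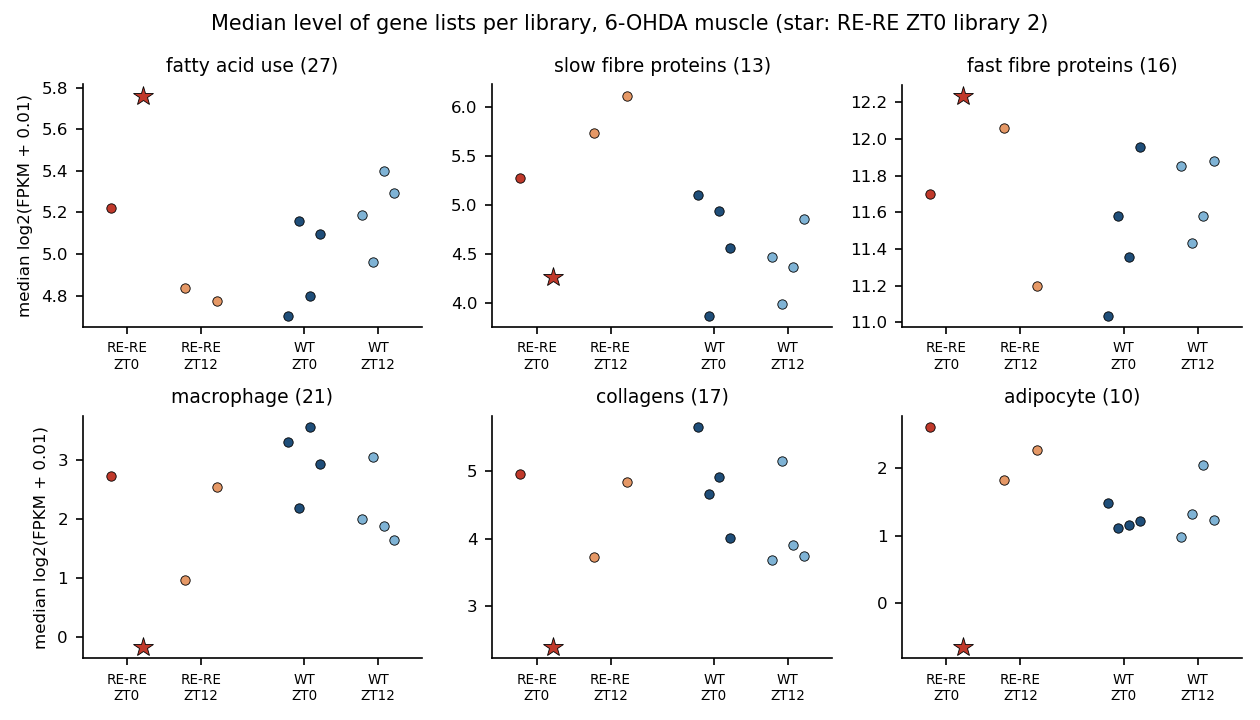
Median log2 FPKM, as deposited, of the fatty acid use, slow fibre, fast fibre, macrophage, collagen and adipocyte lists in each library, with a star for RE-RE ZT0 library 2. Library 2 has the lowest macrophage (-0.17), collagen (2.39) and adipocyte (-0.65) medians of the RE-RE and WT libraries. It has the highest fatty acid use (5.76) and fast fibre (12.2) medians. The slow fibre medians are highest in the RE-RE ZT12 libraries (5.73 and 6.12).

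Sham muscle shows whether the differences were present without injection, and it shares no library with the comparison above. In a fit of all 23 libraries, 1271 of 12820 genes (9.91%) were called between the genotypes in sham muscle, against 29 (0.226%) in 6-OHDA muscle. Whether these shares differ was not tested, and RE-RE sham mice were 10 to 11 weeks old against 12 to 18 weeks for WT sham mice. Of the genes above, Dusp18 (log2 difference -2.28 in sham muscle, adjusted p 0.000283), Ednrb (-0.75, 0.0111), Arhgef3 (-0.44, 0.0140), Sbk3 (-2.40, 0.0218) and Aspa (-0.68, 0.0441) were lower in RE-RE sham muscle too. Mir1968 was on the other side, lower in RE-RE sham muscle (-3.90, adjusted p 0.00127). That value rests on few reads and on 0 FPKM in RE-RE sham libraries 1 and 2. RE-RE sham libraries 3 and 4 had 1.59 and 7.60 FPKM, against 0.652 to 7.86 FPKM in WT sham libraries, so the genotypes overlapped. Angptl4 (1.48, adjusted p 0.0747) and Mid1ip1 (-0.51, 0.104) did not pass there. Npas2 was higher in RE-RE sham muscle (2.1, adjusted p 0.00240), and Tpm3 (0.07, 0.805) and Tnnc1 (-0.17, 0.858) did not pass.

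All RE-RE 6-OHDA libraries were below all WT 6-OHDA libraries for 74 genes (0.603%) and above them for 67 (0.546%). In sham muscle, 61 of the 74 had the same sign (82.4%; 47.5% of all genes were negative there), 25 were called lower and 0 higher. Of the 67, 47 had the same sign (70.1%; 52.4% of all genes were positive), 7 were called higher and 2 lower. The sham libraries were also free of overlap, in the same direction, for 15 of the 74 (0.122% of all genes) and 4 of the 67 (0.0326%). Over all genes the sham libraries were free of overlap, with RE-RE lower, for 1.7% and, with RE-RE higher, for 1.8%. Lower in both were Arhgef3, Dusp18, Smtnl1, Timeless (a partner of the replication fork and of clock proteins) and Sbk2, the neighbour and relative of Sbk3. Sbk2 stood at 14.6 to 27.7 FPKM in RE-RE and 39.8 to 91.6 FPKM in WT 6-OHDA libraries, and at 8.46 to 19.2 FPKM in RE-RE and 23.9 to 69.5 FPKM in WT sham libraries. Higher in both was Rbp7, a retinol-binding protein of capillary endothelium and fat, at 3.57 to 7.87 FPKM in RE-RE and 0.696 to 2.80 FPKM in WT 6-OHDA libraries, and at 5.52 to 6.59 FPKM in RE-RE and 1.44 to 2.57 FPKM in WT sham libraries. Also higher in both was the ribosomal RNA gene CT010467.1, at 435 to 1652 FPKM in RE-RE and 281 to 430 FPKM in WT 6-OHDA libraries and at 613 to 797 FPKM in RE-RE and 464 to 569 FPKM in WT sham libraries. Its part in the other results was not tested. These genes were named after their values were seen.

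**Figure D5:**
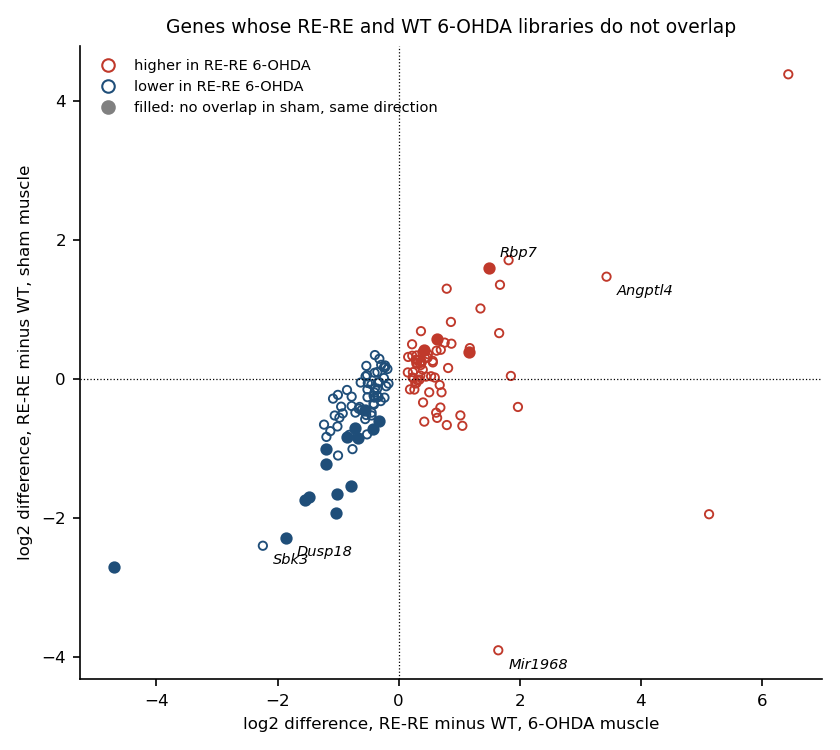
log2 difference, RE-RE minus WT, in 6-OHDA muscle (x axis) against sham muscle (y axis) for the 141 genes (1.15%) whose RE-RE and WT 6-OHDA libraries do not overlap, red for higher and blue for lower; filled points are also free of overlap in sham muscle in the same direction. Most blue points lie below 0 on the y axis, and Mir1968 lies far below 0 on the right side.

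The genotype difference itself changed between 6-OHDA and sham muscle for 9 of 12820 genes (0.0702%), 2 more positive (0.0156%) and 7 more negative (0.0546%) after 6-OHDA, and for 1895 (14.8%) at an unadjusted p under 0.05. Among these 9, Mir1968 had the largest change, 5.55 ± 0.75 (SE; adjusted p 0.00858), kept whichever library was left out (adjusted p up to 0.0342). It rests on few reads, with 0, 0, 2 and 11 in RE-RE and 1 to 13 in WT sham libraries, and on the log2(FPKM + 1) scale the change was 2.05 (adjusted p 0.136). C1galt1, which starts the core of mucin-type sugar chains, changed by -1.57 ± 0.25 (SE; adjusted p 0.0307). It had 2.77, 2.68, 1.54 and 1.57 FPKM in RE-RE and 2.41 to 3.65 FPKM in WT 6-OHDA libraries, and 2.80 to 7.75 FPKM in RE-RE and 1.71 to 2.92 FPKM in WT sham libraries. The genotypes overlapped under both treatments, with RE-RE on the low side after 6-OHDA and on the high side in sham muscle. Lnpep, an aminopeptidase of vesicles that hold the glucose transporter GLUT4 (-1.93, adjusted p 0.0475), and Slc25a32, the mitochondrial folate carrier (-1.22, adjusted p 0.0475), went the same way. The calls of C1galt1, Slc25a32 and Lnpep were lost without 13, 18 and 19 of the 23 libraries, with adjusted p up to 0.0897, 0.156 and 0.156. None of Angptl4, Ednrb, Mid1ip1, Sbk3, Arhgef3, Aspa and Dusp18 passed this test, so their difference after 6-OHDA is not shown to be other than that in sham muscle.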

How the data were processed

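Total RNA of tibialis anterior was sequenced as pairs. Tools named in the submitters' processing notes are edgeR 3.30.0, featureCounts 1.6.2, HISAT2 2.1.0, Trim Galore 0.5.0 and FastQC 0.11.8; the build is GRCm38. The values the authors deposited are log2 FPKM per gene, log2(FPKM + 0.01), from -6.64 for an FPKM of 0 to 16.6; whether a factor between libraries was applied is not given in the sources used here. FPKM was computed back from these values. Symbols and positions came from GENCODE M21 (14435 of 14500 identifiers matched).

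R 4.3.3 and limma 3.58.1 (lmFit, eBayes with trend) were used to fit the deposited log2 values, with genotype and time for the main comparison and with group means by time and for sham muscle. Genes needed 1 FPKM in 2 libraries, and the Benjamini-Hochberg threshold was 0.05. The scripts were tested on simulated data. The figures were drawn with matplotlib 3.10.9 and the tables made with pandas 2.3.3, numpy 2.4.6 and python 3.11.15. Depth was recovered from the steps of low FPKM values, of which 88.2% to 94.7% per 6-OHDA library were whole within 0.1 read; intervals and floors were not drawn from it.

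Members, the 44 gene lists and the tests were chosen with earlier results of these data known. Named were the clock genes, the 10 genes of smallest p, and up to 6 genes of smallest p in each by-time and treatment test, whose mean log2 FPKM reached 1; others are marked. Each library is labelled as a mouse of its own group; the labels give no litter or sequencing batch, so p-values measure the spread between these samples. The alternatives tried were median centring, quantile normalization, log2(FPKM + 1), a filter at a mean log2 FPKM of 1, no filter, own totals of recovered reads, array weights, 1 variance per genotype, age, the replicate number as a block, robust eBayes, leaving out each library and all 23 libraries. Chosen after seeing the data were the gene lists by time without RE-RE library 2 and under each scaling, and limma-voom on recovered reads. Isoforms were not analysed here, and a few genes of the lists are not reported here.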

Additional observations from a re-analysis of the deposited data

Results flagged for a closer look

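One WT library of 4 lay far from the other 3 for 6 of the 47 named genes. These are 6 of 94 groups of 4 examined, and chance gives about 1 in 20. At ZT0 these were Hlf in library 4 (0.397 FPKM against 0.291 to 0.300), Tnnc1 in library 2 (12.7 FPKM against 26.3 to 28.0) and Tpm3-rs7 in library 1 (2.12 FPKM against 1.57 to 1.63). At ZT12 all 3 were in library 6, with Mgmt at 2.45 FPKM against 3.41 to 3.48, Bdh1 at 2.2 FPKM against 4.16 to 4.58 and Fzd4 at 20.3 FPKM against 17.0 to 17.5. RE-RE groups of 2 were not examined in this way.

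The genotype difference changed between the times for Slc25a34 (ZT12 minus ZT0, -3.70 log2 units) and Tpm3 (1.70). It changed between 6-OHDA and sham muscle for Mir1968 (5.55), C1galt1 (-1.57), Slc25a32 (-1.22) and Lnpep (-1.93), each by the interaction test of limma.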

How the results depend on the processing

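The 8 genes called across both times kept their sign under every alternative that tested them, none reversing. Their number, 8, became 20 with log2(FPKM + 1), 21 with quantile normalization, 21 with own totals of recovered reads (7 higher and 14 lower; the median of all genes moved to -0.12), 38 with array weights, 0 with 1 variance per genotype (566 at an unadjusted p under 0.05), 27 with age as a covariate, 29 with all 23 libraries and 18 with limma-voom. These sets did not always hold the 8. All 8 were called with log2(FPKM + 1), array weights and age. Quantile normalization, median centring, own totals, no filter and all 23 libraries each called 6 of them, and limma-voom called 5. Leaving out 1 library gave 0 calls (RE-RE library 4) to 11 (WT library 4), and 1 without RE-RE library 2. The replicate block gave 0 calls (1166 at an unadjusted p under 0.05). Numbers 5 to 8 hold WT libraries alone, and only numbers 1 and 2 hold both genotypes at the same time. The block fit thus took the genotype difference from ZT0 libraries 1 and 2 of each genotype. Its 0 calls cannot decide whether the result across both times holds. The numbers were not taken to pair the mice, since libraries 3 and 4 are of ZT12 in RE-RE and of ZT0 in WT muscle. Residuals of same-numbered libraries correlated at 0.40, 0.15, -0.09 and -0.34. Only numbers 1 and 2 share a time, too few for the correlations to decide whether they pair. The 7 calls at ZT0 became 11 with own totals, 2 with a filter at a mean log2 FPKM of 1, 1 with array weights and 3 to 3317 with 1 library left out. The 3317 come without RE-RE library 1, where library 2 alone is assumed to vary like the other groups; without library 2 there were 13, with 0 higher and 13 lower against 4 higher and 3 lower with all libraries. The 15 calls at ZT12 became 3 with array weights and 2 (without WT library 5 or RE-RE library 4) to 18 with 1 library left out. The 3 calls for a change between the times became 0 with quantile normalization, log2(FPKM + 1) and array weights (1553, 1649 and 1086 at an unadjusted p under 0.05), 5 with median centring, 1 with own totals, 10 with no filter and 0 to 2652 (without RE-RE library 1) with 1 library left out. The 9 calls for a change between 6-OHDA and sham muscle became 4 with log2(FPKM + 1), no filter and median centring, 1 with quantile normalization, 0 with the stricter filter and array weights (1326 and 526 at an unadjusted p under 0.05) and 1 to 1111 (without RE-RE sham library 4) with 1 library left out. The causes were not tested.

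Arntl stayed positive and uncalled, at 0.20 to 0.65 with 1 library left out and 0.00296 with the block. The block fit took the genotype difference from ZT0 libraries alone, so its values are not differences over both times. The sign changes given for it below therefore cannot show whether a sign over both times depends on the processing. Clock genes that were not called changed sign as follows (log2 difference). With the block, Per1 was 0.10, Per3 0.042, Ciart 0.14, Nr1d1 0.032, Nr1d2 0.53, Bhlhe40 0.13, Bhlhe41 0.24, Tef 0.47 and Hlf 1.19. With age, Per1 was 0.0092, Nr1d2 0.034, Bhlhe41 0.046, Tef 0.076 and Hlf 0.028. With own totals, Clock was -0.051 and Rora -0.11. With limma-voom, Clock was -0.078, Cry1 -0.013, Dbp -0.13 and Rora -0.11. With array weights, Dbp was -0.13, Nfil3 0.036 and Rora -0.091, and with quantile normalization Rora was -0.00076. With 1 library left out, Cry2 ranged from -0.012 to 0.28, Ciart from -0.56 to 0.076, Nr1d2 from -0.64 to 0.13, Bhlhe41 from -0.19 to 0.087, Dbp from -0.36 to 0.47, Tef from -0.33 to 0.14, Hlf from -1.31 to 0.16, Nfil3 from -0.21 to 0.085 and Rora from -0.37 to 0.29. Of 1223 single-gene values under alternatives, 880 kept their direction and side of the threshold, 271 lost a call, 33 gained one and 39 changed sign. The 39 include the sign changes with the block. Of 1025 list medians, 41 moved by more than the spread between libraries. RE-RE library 2 widens that spread for some lists. The macrophage median of log2 FPKM was -0.17 in it, against 0.97 to 2.74 in the other RE-RE libraries. The count therefore does not show that the other list medians are stable.

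RE-RE groups hold 2 libraries per time, which limits every comparison by time, and Mir1968 rests on few reads.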

Other observations

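Genes for cytosolic ribosomal proteins had slightly higher values in RE-RE muscle, and none passed the test. Of 36, 35 had a positive log2 difference and 14 stood at an unadjusted p under 0.05, where 3.93% of all genes were higher; 0 were called by limma, and the median was 0.21, or 0.19 without RE-RE library 2 and 0.09 with own totals of recovered reads; at ZT0 alone the median of 0.20 became -0.10 with own totals and -0.02 with quantile normalization. Rpl14, a protein of the large subunit, had the largest difference (0.39, adjusted p 0.165), and Rpl3 was negative (-0.28, adjusted p 0.766). Proteasome genes were positive for 31 of 31 with a median of 0.18, which was 0.06 without library 2.

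Erythroid genes were positive for 5 of 5 tested, with a median of 0.55 and 0 called by limma. At an unadjusted p under 0.05, 2 of them were higher, where 3.93% of all genes were. Their summed level was 112 to 177 FPKM in RE-RE and 44.2 to 142 FPKM in WT libraries. Cd163, a scavenger receptor of resident macrophages, was low in all 4 RE-RE libraries, at 0.751 to 0.914 FPKM against 1.21 to 2.36 FPKM in WT libraries (log2 difference -1.0, adjusted p 0.0607), including libraries 1 and 4, whose summed macrophage markers were within the WT range. Tspan4 and Dgat2, muscle genes known to cycle, had lower values in RE-RE muscle at ZT12. Dgat2, of triglyceride synthesis, had 8.29 and 9.64 FPKM in RE-RE and 17.1 to 32.1 FPKM in WT libraries there (-1.43, adjusted p 0.130), and Tspan4 had 3.99 and 8.86 FPKM in RE-RE and 12.0 to 13.7 FPKM in WT libraries (-1.12, adjusted p 0.281). These genes were named after their values were seen.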
